A study of Mus musculus with 4 samples.

Results

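The potassium channel genes were followed in coronal sections of the mouse brain through the dorsal hippocampus. Members were all genes whose symbol begins with Kcn, without Kcnj13 and without antisense or opposite-strand RNAs, of which Kcnq1ot1 was left out as the antisense transcript of Kcnq1. This gave 93 genes of 99 such symbols and of 32285 genes in the count files. Of the 93, 68 had 50 or more UMIs (unique molecular identifiers, which count captured mRNA molecules) over all sections and are described, while 25 had fewer, 6 of them none. The 3 members just under the minimum were Kcnk6 with 43 UMIs, Kcnj5 with 36 and Kcnh8 with 31, and the 3 just above it were Kcnh5 with 62, Kcna1 with 70 and Kcne2 with 81.

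Spatial transcriptomics (Visium) was performed on 1 section from each of 4 male ArcCreERT2::eYFPflx mice on a C57BL/6 background, aged 3 to 4 months, a line that marks cells with eYFP for good when they express the activity-regulated gene Arc while tamoxifen is present, through a Cre recombinase under the promoter of that gene. The 2 trained mice had learned to avoid a shock zone in the active place avoidance task, and the 2 untrained mice had been placed on the same rotating arena with the shock turned off. All 4 mice received 4-hydroxytamoxifen under isoflurane before the retention test and were sacrificed 3 days after it, so reporter and drug were common to both conditions and no mouse without them was compared. The labels name hippocampus as the tissue, but the sections also held cortex, striatum, thalamus, habenula, hypothalamus and white matter.

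Potassium channels set the resting potential of neurons and glia, repolarize the action potential and determine how a neuron fires in trains. The family is divided by structure into voltage-gated channels (Kv), channels opened by calcium or sodium, inward rectifiers that pass current best near rest, and 2-pore channels that carry leak current, and most of them work with auxiliary subunits that move them to the membrane or change their gating. In the brain different neurons carry different sets, for example the fast Kv3 channels of neurons that fire at high rates and the inward rectifiers of striatal projection neurons and astrocytes.

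The 4 sections had 7119995 (trained 1), 10330015 (trained 2), 3560294 (untrained 1) and 6581748 (untrained 2) UMIs over 2359 to 3055 spots. Potassium channel genes took 22927, 34577, 11553 and 20673 of these UMIs, or 3220, 3347, 3245 and 3141 CPM (counts per 1000000 UMIs). Each spot was given to 1 of 14 regions by lists of marker genes that hold no Kcn gene, or to none. Every list had its highest summed level in its own region, which follows largely from the assignment by the same lists and does not test it. The regions are named here for their lists, and a spot holds several cells of different types, so that fewer cells of a type and less RNA per cell cannot be told apart. Trained 2 stood apart from the other sections: its mitochondrially encoded genes took 6.83% of UMIs against 11.6% to 12.2%, and its choroid plexus list summed to 530 CPM against 2465 to 5527 CPM. The section of untrained 1 lay at the edge of its array and had 61 spots in layer 5 cortex, where the others had 166 to 172. The capture arrays use common barcodes, and 1330 spot barcodes occurred in all 4 sections, at array positions of their own and with no cell in common.

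**Figure D1:**
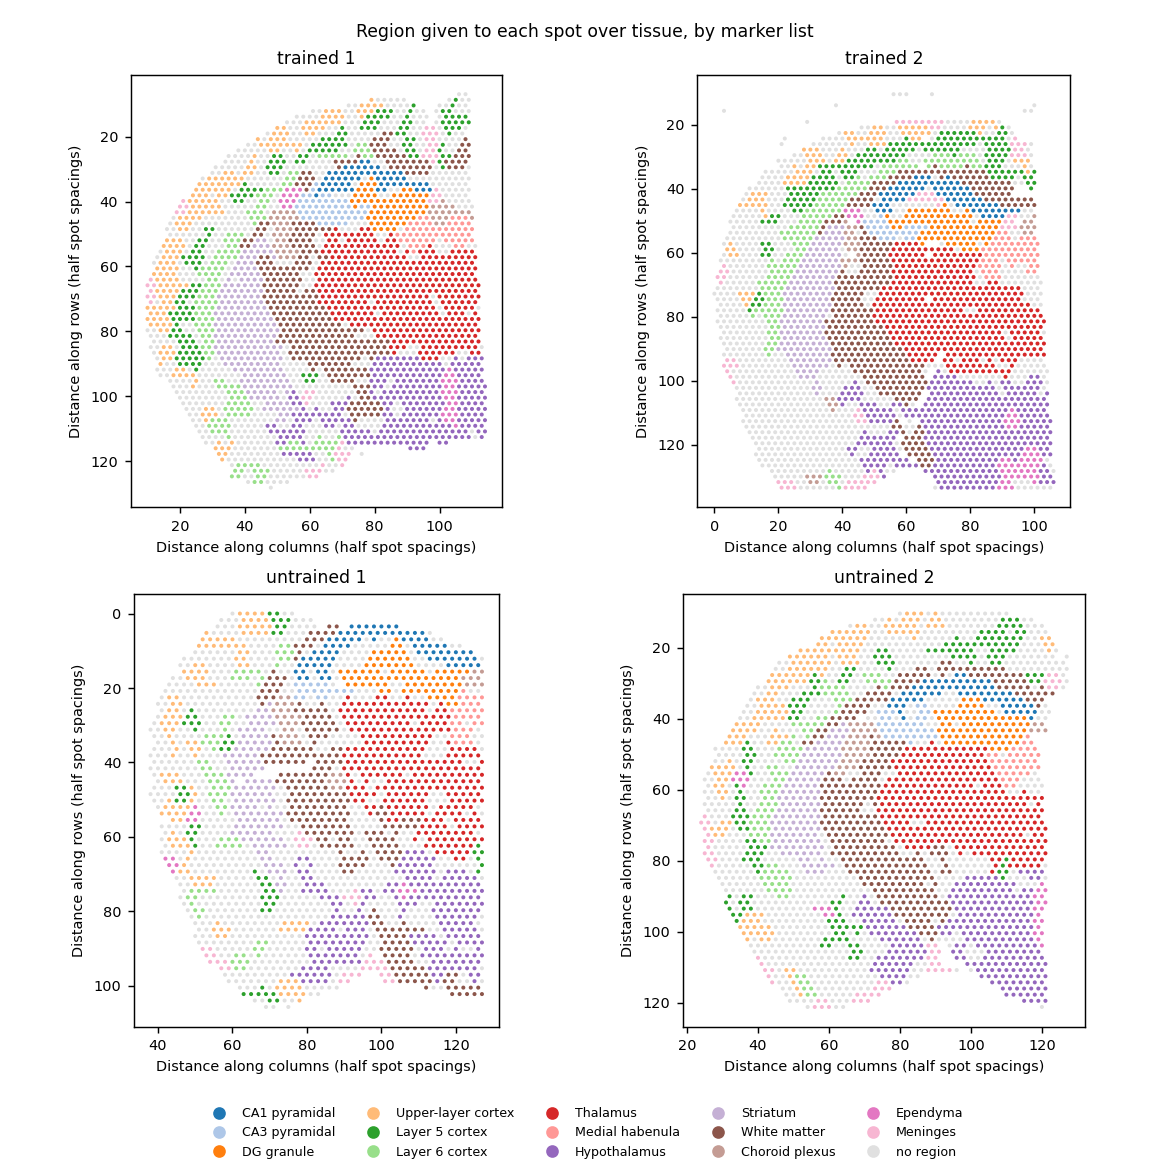
Spots over tissue in each of the 4 sections, drawn at their array positions (x and y axes, with neighbours in a line 2 units apart) and coloured by the region whose marker list led the spot; grey spots were given no region. The hippocampal layers, thalamus, striatum and white matter form patches in all 4 sections.

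Across regions, the expression of potassium channel genes differed widely. Every region was set against the average of the other 13 by a quasi-likelihood F-test (edgeR) on summed UMIs with the section as a block, over 12901 genes, which included 67 of the 68 members. Of these, 64 were higher in at least 1 region, 37 were lower in at least 1, and 3 were called in none, Kcnk10 and Kcnk12 among them. The same counts were not taken over all genes, so they do not set the family apart. Over the 938 tests of a member in a region 185 were higher and 90 lower, while over all genes 8.45% of tests were called higher and 3.73% lower. For 4 of the 185, Kcna1 in CA3, Kcne2 in the choroid plexus, Kcnu1 in the hypothalamus and Kcne4 in the thalamus, the gene reached the minimum of 50 UMIs only with those of the region itself, so that these differences are given as a description. A difference below is on the log2 scale, the region minus the mean of the other regions, with its standard error, and p-values are Benjamini-Hochberg adjusted over all genes tested.

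**Figure D2:**
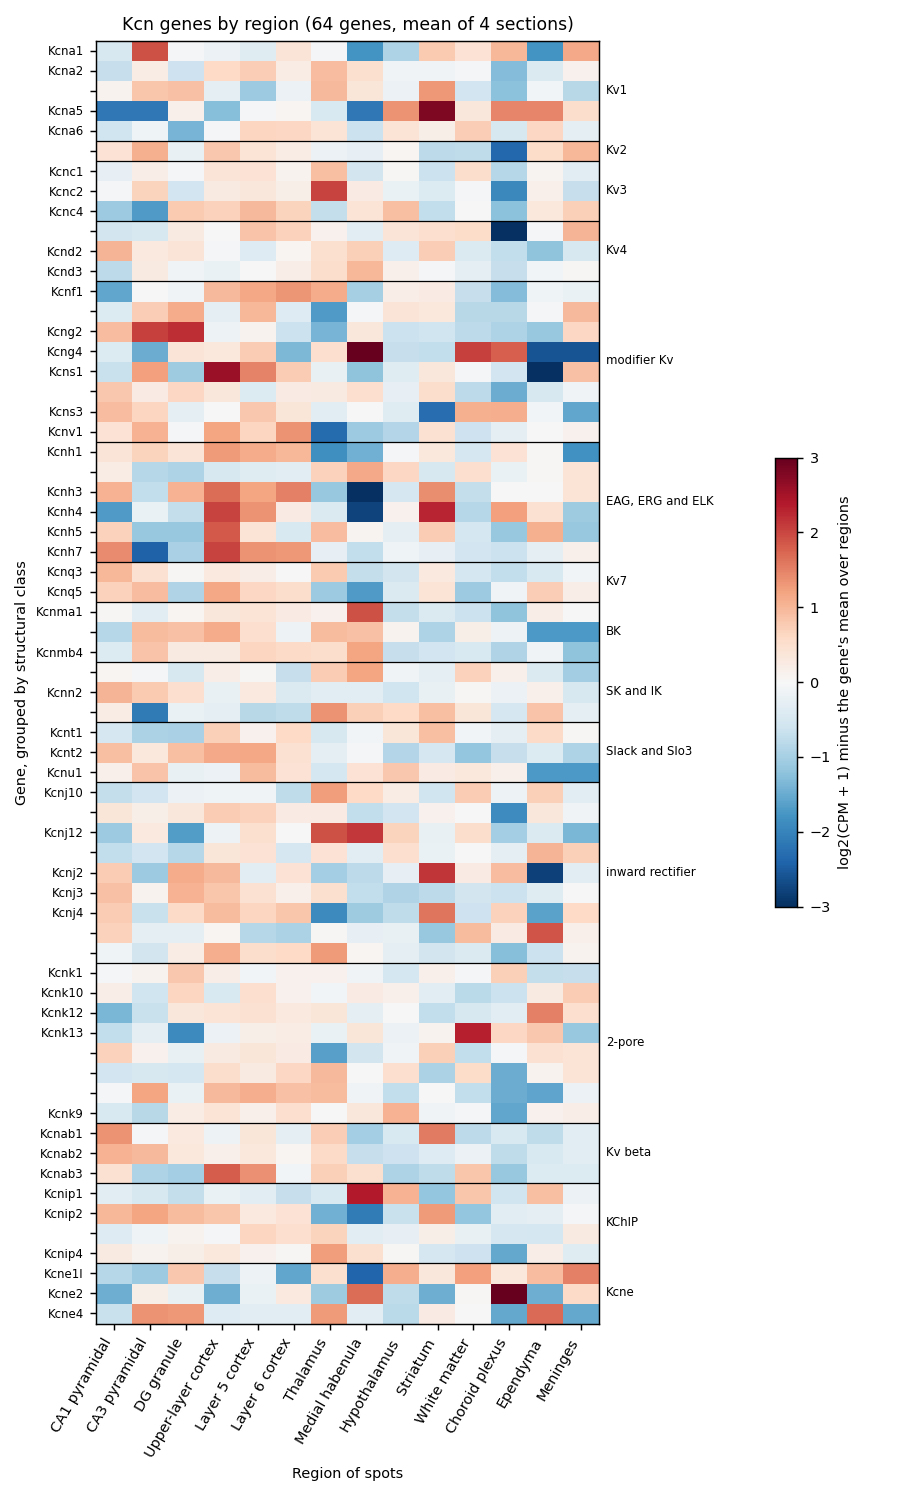
Mean level of 64 of the 68 potassium channel genes (1 line each, grouped by structural class, with the genes described in the text labelled) in the 14 regions (columns), as log2(CPM + 1) over 4 sections minus the mean of the gene over the regions; red is higher and blue lower than that mean. Kcng4, Kcnip1 and Kcnma1 stand out in the habenula, Kcnc2 in the thalamus, Kcnj2 and Kcnj4 in the striatum, Kcnk13 in white matter and Kcne2 in the choroid plexus.

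The thalamus was the region with the most members called, 30 higher and 12 lower of 67, where 17.9% of all genes were higher and 8.2% lower. Among those higher were 3 of 4 Kv3 genes, 6 of 9 inward rectifiers and all 3 Kv beta genes. Kcnc2, a Kv3 channel that lets neurons repolarize fast, had 337 CPM in trained 1, 428 in trained 2, 351 in untrained 1 and 398 in untrained 2, which is 378 CPM ± 42.2 (SD, n = 4) from 1583 UMIs. The lowest of these lay above all 52 sums of the other regions, the second of which was CA3, where Kcnc2 had 147 CPM ± 52.4 (SD, n = 4), and the difference from the other regions was 2.30 ± 0.08 (adjusted p = 2.56e-66). Kcnj12, an inward rectifier, reached 34.5, 23.0, 12.5 and 18.4 CPM in the thalamus (2.49 ± 0.29, adjusted p = 6.96e-14), and its values overlapped those in the habenula, at 21.1, 35.0, 29.1 and 16.6 CPM. Kcne4, a small auxiliary subunit, had 34 UMIs and 2.51 to 13.6 CPM in the thalamus (1.87 ± 0.44, a description for the reason above, and 1.21 by DESeq2). Kcnip4, one of the calcium-binding KChIP subunits of Kv4 channels, had 175, 209, 196 and 168 CPM there (1.46 ± 0.10, adjusted p = 2.68e-31), above all sections of the second region, the habenula, and overlapping 1 sum of the other regions, untrained 1 in ependyma at 170 CPM. Kcnj10, the Kir4.1 channel of astrocytes, had 272, 207, 291 and 267 CPM (1.36 ± 0.09, adjusted p = 2.51e-32), whereas its level in layer 6 cortex was 61.4 to 65.8 CPM, with a mean of 63.8 CPM close to the 65.4 CPM of CA1 (fell by 0.85 ± 0.15, adjusted p = 4.32e-06). That decrease was not called when the sums were thinned to equal depth (-0.55, adjusted p = 0.132). Kcnv1, a silent subunit that changes Kv2 channels, fell by 2.79 ± 0.33 in the thalamus (adjusted p = 1.91e-13), to 0, 3.14, 7.52 and 5.26 CPM.

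In the medial habenula 8 members were higher and 11 lower of 67, against 3.76% and 3.79% of all genes. Kcng4, a modifier subunit that is silent alone and assembles with Kv2 channels, had 111, 56.0, 174 and 58.1 CPM in the habenula and 24.1 CPM ± 7.16 (SD, n = 4) in white matter, the second region, with no overlap. It differed from the other regions by 4.38 ± 0.41 (adjusted p = 5.51e-19, 42 UMIs). Kcnip1, another KChIP, had 232, 126, 145 and 266 CPM (2.48 ± 0.22, adjusted p = 2.90e-20), above the hypothalamus at 75.3 CPM ± 21.2 (SD, n = 4). Kcnj12 differed by 2.30 ± 0.58 (adjusted p = 2.78e-03), but was not called in the habenula in thinned sums (2.33, adjusted p = 0.14).

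The pore subunit of the large-conductance calcium-activated BK channel, Kcnma1, was also highest in the habenula, with 316, 154, 320 and 332 CPM against 97.8 CPM ± 29.9 (SD, n = 4) in layer 5 cortex (1.93 ± 0.17, adjusted p = 1.09e-20). Of the other regions 1 sum, untrained 1 in ependyma at 170 CPM, lay above its lowest habenula section. Its accessory subunit Kcnmb4 was higher there too, at 163, 105, 291 and 133 CPM (0.89 ± 0.21, adjusted p = 7.77e-04), although its sections overlapped those of CA3. Lrrc55, which encodes a gamma subunit of BK channels and is not a Kcn gene, had 221, 259, 174 and 407 CPM in these spots (4.33 ± 0.24, adjusted p = 1.15e-41). Kcnd3, a Kv4 channel of the transient A-type current, had 87.2 to 105 CPM in the habenula and did not overlap the thalamus at 67.4 CPM ± 6.11 (SD, n = 4), although untrained 1 in layer 5 cortex had 88.3 CPM, with a difference of 1.01 ± 0.26 (adjusted p = 3.26e-03).

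Kcnh3, an ELK channel of forebrain neurons, had 0 UMIs in all 4 habenula sums. It averaged 54.5 CPM over the other regions, so that its level was at least 8.85-fold lower in the habenula when 3 counts over the 4 sums are taken as the limit (adjusted p = 2.38e-07). Kcne2 was called higher in the habenula (2.87 ± 0.75, adjusted p = 3.97e-03), but its 6 UMIs all came from trained 1. In that section the choroid plexus list summed to 21852 CPM in the habenula spots against 623 to 2135 CPM in the other sections, and its part in the Kcne2 value was not tested.

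**Figure D3:**
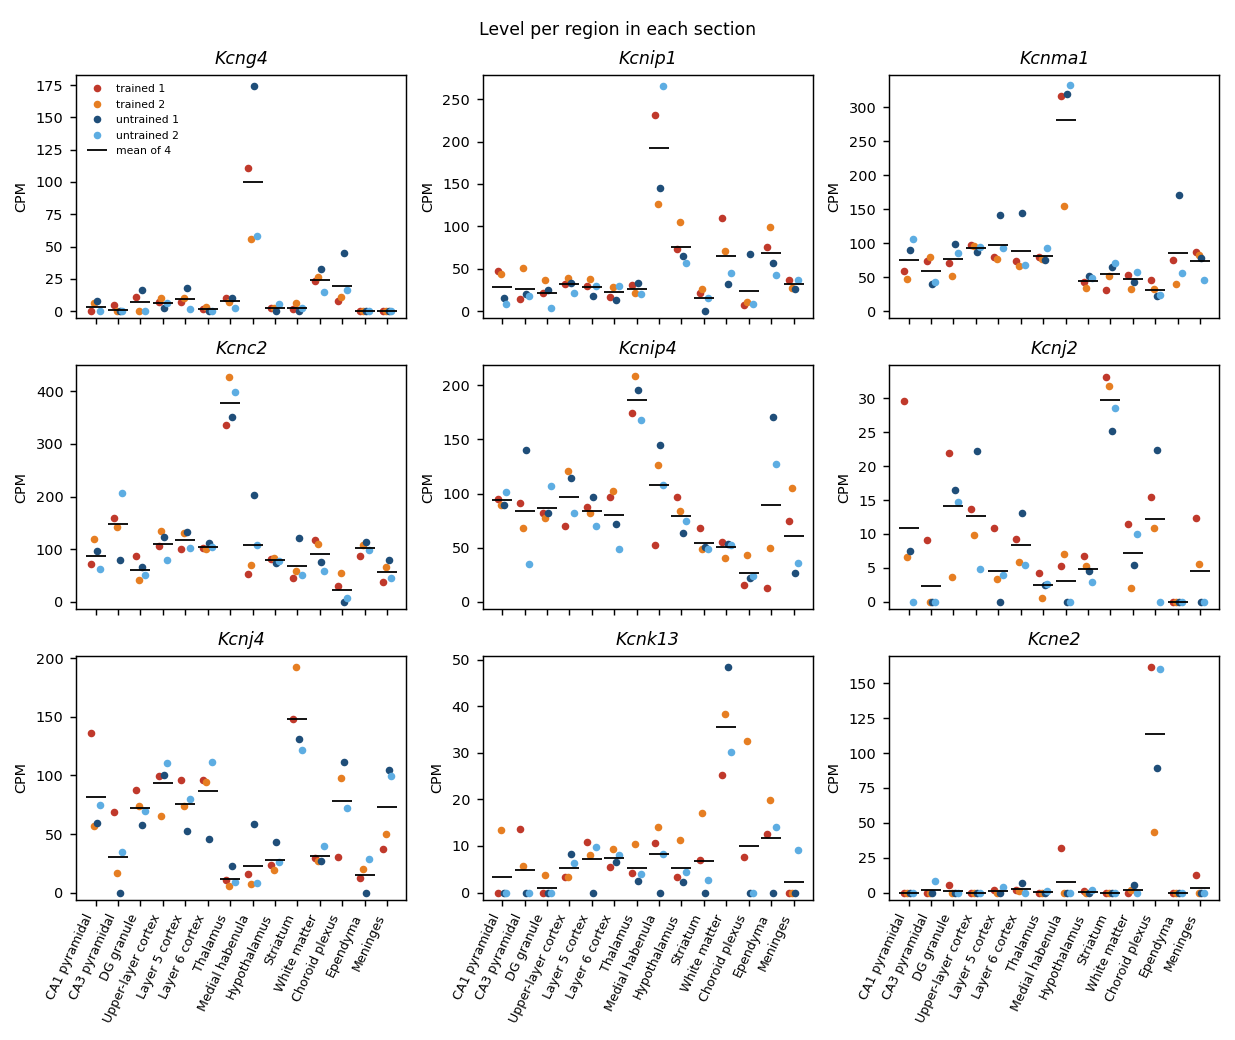
Level in CPM (y axis) of 9 potassium channel genes in each region (x axis), with 1 point for each of the 4 sections and a dash for their mean. All 4 points of the leading region lie above those of the second region in mean level, for example Kcnc2 in the thalamus at 337 to 428 CPM and Kcnk13 in white matter at 25.3 to 48.4 CPM.

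In the striatum 18 members were higher and 11 lower of 67, against 10.1% and 3.69% of all genes. The 3 Kv3 genes called there were all lower. Kcna5, a Kv1 channel, was higher by 3.53 ± 0.39 (adjusted p = 8.02e-15), at 17.5, 30.6, 45.3 and 25.9 CPM, and Kcnh4, an ELK channel, by 3.01 ± 0.32 (adjusted p = 6.18e-16), at 35.0, 46.6, 25.2 and 23.3 CPM. Both strongly rectifying inward rectifiers Kcnj2 (Kir2.1) and Kcnj4 (Kir2.3), channels that hold striatal projection neurons near their resting potential, were highest in the striatum in 4 of 4 sections. Kcnj2 had 33.2, 31.9, 25.2 and 28.5 CPM (2.69 ± 0.32, adjusted p = 6.29e-13, 61 UMIs), and Kcnj4 had 149, 192, 131 and 122 CPM (1.98 ± 0.14, adjusted p = 5.37e-30, 315 UMIs). Neither overlapped its second region, which was DG for Kcnj2 at 14.2 CPM ± 7.64 (SD, n = 4) and upper-layer cortex for Kcnj4 at 93.9 CPM ± 19.6 (SD, n = 4), but trained 1 in CA1 reached 29.6 CPM of Kcnj2 and 136 CPM of Kcnj4, above their lowest striatal sections. Kcns3, a modifier subunit, was lowest in the striatum with 1 UMI (fell by 3.07 ± 0.83, adjusted p = 3.85e-03), but lost its call without trained 2 (-2.21) and in thinned sums (-2.89). In trained 1 and trained 2 the summed level of the striatum list over whole sections was above that of both untrained sections, with 7 of its 9 markers above in both.

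The 250 bases before the RefSeq start of Kcnj2 and Kcnj4 are shown because both genes led in the same region, beside those of Kcng4 and Kcnk13, which led in the habenula and in white matter. They are given 5′ to 3′ on the strand of the gene in build GRCm38.p6, with the GC box GGGCGG or its reverse complement CCGCCC in capitals. The windows lie at chr11:111065914-111066163 (+ strand) for Kcnj2, chr15:79505242-79505491 (- strand) for Kcnj4, chr8:119635681-119635930 (- strand) for Kcng4 and chr12:99964249-99964498 (+ strand) for Kcnk13.
Kcnj2: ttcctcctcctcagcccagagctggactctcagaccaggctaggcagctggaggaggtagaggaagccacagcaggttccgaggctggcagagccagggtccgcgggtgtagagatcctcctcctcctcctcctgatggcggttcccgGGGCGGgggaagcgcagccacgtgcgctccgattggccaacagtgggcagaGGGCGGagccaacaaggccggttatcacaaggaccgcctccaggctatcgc
Kcnj4: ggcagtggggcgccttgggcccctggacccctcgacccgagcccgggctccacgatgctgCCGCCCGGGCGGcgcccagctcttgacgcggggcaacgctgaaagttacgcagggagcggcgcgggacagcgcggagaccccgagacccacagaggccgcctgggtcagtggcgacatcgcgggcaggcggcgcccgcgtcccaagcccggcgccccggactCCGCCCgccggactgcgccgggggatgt
Kcng4: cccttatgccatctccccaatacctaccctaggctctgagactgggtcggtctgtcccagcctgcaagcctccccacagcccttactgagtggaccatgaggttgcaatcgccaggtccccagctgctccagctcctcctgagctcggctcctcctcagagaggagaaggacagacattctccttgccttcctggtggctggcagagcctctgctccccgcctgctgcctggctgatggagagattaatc
Kcnk13: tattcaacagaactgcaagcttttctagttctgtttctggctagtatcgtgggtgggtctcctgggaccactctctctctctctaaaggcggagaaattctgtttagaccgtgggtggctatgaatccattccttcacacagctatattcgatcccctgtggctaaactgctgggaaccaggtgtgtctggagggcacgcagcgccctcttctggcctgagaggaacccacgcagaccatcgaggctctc
The Kcnj2 window held 2 GC boxes and that of Kcnj4 held 3, while none was found in those of Kcng4 and Kcnk13. Of all 32851 promoter windows of this length 32.7% held at least 1, and of the 71 windows found for 48 of the 68 members 43.7% did. A match of letters is a description of the window and was not tested as a binding site.

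White matter spots, led by genes of myelinating oligodendrocytes, had 13 members higher and 13 lower of 67, against 14.6% and 5.85% of all genes. Kcnk13, the 2-pore channel THIK-1, had 25.3, 38.3, 48.4 and 30.1 CPM there, 2.45 ± 0.29 above the other regions (adjusted p = 6.34e-13), and did not overlap ependyma, the second region, at 11.6 CPM ± 8.34 (SD, n = 4). Trained 2 in the choroid plexus, at 32.5 CPM, was the 1 sum of the other regions above its lowest white matter section. The microglia list, of cells known for this channel, summed to 498 to 527 CPM in the white matter spots, with none of its 6 markers at 0, and its part in the value was not tested. Kcng4 (2.66 ± 0.38, adjusted p = 1.14e-09) was also higher, at 15.1 to 32.2 CPM, as was Kcne1l (1.76 ± 0.44, adjusted p = 8.25e-04), an auxiliary subunit, at 5.37 to 20.7 CPM, the latter not called without trained 1 (1.37, adjusted p = 0.0668) or in thinned sums (1.47, adjusted p = 0.14). The summed interneuron list had its highest mean in white matter, at 2097 to 3874 CPM, with none of its 8 markers at 0. Kcnip2, a KChIP, fell by 1.21 ± 0.17 (adjusted p = 4.36e-10), to 42.6 to 80.6 CPM.

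In the choroid plexus, the tissue that secretes cerebrospinal fluid, 2 members were higher and 10 lower of 67, against 6.71% and 5.39% of all genes. Kcne2, the subunit of the Kv7 and Kv1 channels of that epithelium, had 162, 43.3, 89.4 and 160 CPM there from 49 of its 81 UMIs. It was tested only because of those 49, so that its difference of 6.71 ± 0.43 is a description. Trained 2 had the lowest Kcne2 level and also the lowest choroid plexus list in these spots, at 30050 CPM against 102350 to 181170 CPM. Kcnk1 (TWIK-1), a 2-pore channel, was higher by 0.97 ± 0.20 (adjusted p = 8.00e-05), at 269, 130, 112 and 192 CPM, but lost its call without trained 1 (0.56, adjusted p = 0.202) and in thinned sums (0.86, adjusted p = 0.055). Kcnk9 (TASK-3), another 2-pore channel, had 3 UMIs in the choroid plexus (fell by 2.04 ± 0.69, adjusted p = 0.0344) and lost the call without trained 1 or without untrained 2, whose values were -1.94 and -1.55, as well as in thinned sums, with filterByExpr, without the block of section and by DESeq2 (-2.45 to -1.83). In ependyma spots 2 members were lower and none higher (1.35% and 1.69% of all genes), of which Kcnk1 fell by 1.07 ± 0.33 (adjusted p = 0.0417, 17 UMIs). That call was lost without trained 1, trained 2 or untrained 1, at -0.95, -0.87 and -1.06, and also in thinned sums, with filterByExpr, without the block of section and by DESeq2 (-1.15 to -0.88). In meninges spots no member passed the test, with 10 at an unadjusted p under 0.05, where 1.87% of all genes were higher and 0.256% lower and 11.1% had such a p.

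Of the members called in the cortex most were higher. In upper-layer cortex 25 members were higher and 0 lower of 67 (10.5% and 2.91% of all genes), in layer 5 cortex 30 and 1 (9.29% and 2.93%), and in layer 6 cortex 15 and 2 (8.82% and 2.6%). The medians of the log2 differences of the members were 0.42, 0.43 and 0.20, and those of all genes 0.08, 0.06 and 0.06. Of the 5 EAG, ERG and ELK genes tested 4 were higher in upper-layer and 4 in layer 5 cortex. Kcns1, a modifier subunit of Kv2 channels, was highest in upper-layer cortex, at 51.4, 68.8, 33.4 and 43.3 CPM (2.97 ± 0.28, adjusted p = 1.73e-18), followed by Kcnh4 (2.62 ± 0.35, adjusted p = 1.22e-10) and the ERG channel Kcnh7 (2.35 ± 0.18, adjusted p = 5.64e-26), with 104, 121, 80.6 and 107 CPM. In layer 5 the leading members were Kcnh7 (1.73 ± 0.19), Kcnab3, a cytoplasmic beta subunit of Kv1 channels (1.62 ± 0.15), and Kcnh3 (1.55 ± 0.20), and the Kv4 gene Kcnd2 was lower (fell by 0.63 ± 0.15, adjusted p = 1.27e-03), at 37.0 to 97.1 CPM, though not in thinned sums (-0.43, adjusted p = 0.523). In layer 6 they were Kcnh3, at 67.3 to 114 CPM (1.78 ± 0.19, adjusted p = 6.34e-15), Kcnf1, a modifier subunit, at 80.3 to 125 CPM (1.49 ± 0.16, adjusted p = 4.25e-15), and Kcnv1, at 46.4 to 78.9 CPM (1.48 ± 0.20, adjusted p = 3.30e-10).

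In the hypothalamus 12 members were higher and 16 lower of 67, against 15% and 6.11% of all genes, and all 3 Kv beta genes were lower. Kcnip1 had 72.7, 106, 65.6 and 57.2 CPM (1.23 ± 0.14, adjusted p = 1.90e-13) and Kcnk9 had 62.5, 60.8, 90.4 and 54.2 CPM (1.20 ± 0.16, adjusted p = 5.78e-11). Kcnu1, the pore subunit of Slo3, had 19 UMIs and a difference of 1.39 ± 0.51, also a description (1.25 without trained 1 and 0.80 by DESeq2). Kcnv1 fell by 1.04 ± 0.26 (adjusted p = 1.03e-03), to 8.02 to 20.3 CPM, and lost the call in thinned sums (-0.87, adjusted p = 0.0571).

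In the hippocampus, 13 members were higher and 4 lower in CA1 (6.15% and 2.58% of all genes), 9 and 4 in CA3 (5.5% and 3.03%), and 10 and 4 in DG (6.38% and 3.53%), each of 67. In CA1 Kcnh7 (1.60 ± 0.28, adjusted p = 1.10e-06), Kcnab1, a beta subunit that speeds the inactivation of Kv1 channels (1.46 ± 0.15, adjusted p = 2.63e-16), and Kcnh3 (1.33 ± 0.28, adjusted p = 1.03e-04) led, and Kcnf1 was lower (fell by 1.76 ± 0.40, adjusted p = 4.11e-04). In CA3 the modifier gene Kcng2 was higher, at 41.1, 56.8, 20.1 and 94.8 CPM (2.31 ± 0.39, adjusted p = 5.79e-07), with Kcnip2 (1.20 ± 0.17, adjusted p = 1.52e-09) and Kcnv1 (1.08 ± 0.35, adjusted p = 0.0319), the last of which lost its call without trained 1, trained 2 or untrained 2 (1.21, 0.95 and 1.09) and in thinned sums (1.17). Kcnh7 was lower there (fell by 2.27 ± 0.67, adjusted p = 0.0135, 3 UMIs), but its call was lost without untrained 2 (-1.94, adjusted p = 0.0863). In DG Kcng2 had 87.6, 40.5, 49.2 and 62.7 CPM (2.40 ± 0.32, adjusted p = 2.31e-10), followed by Kcnh3 (1.29 ± 0.28, adjusted p = 1.79e-04) and Kcnip2 (1.10 ± 0.14, adjusted p = 1.25e-10), and Kcna6, a Kv1 channel, fell by 1.35 ± 0.31 (adjusted p = 4.27e-04).

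The 3 hippocampal layers were also set against each other in the same fit, a comparison added after the data were seen. Between CA1 and CA3, 4 members were higher in CA1 and 1 in CA3 (1.17% and 1.3% of all genes), between CA1 and DG 7 and 2 (2.77% and 2.02%), and between CA3 and DG 4 and 4 (3.15% and 2.78%). Kcnh7 separated CA1 from both: it had 94.6, 66.6, 52.1 and 52.9 CPM in CA1, 9.14, 5.68, 0 and 0 in CA3 and 21.9, 18.4, 0 and 7.37 in DG, with CA1 above the other layers in every section and no overlap. The difference from CA3 was 3.60 ± 0.63 (adjusted p = 7.83e-06) and that from DG 2.32 ± 0.45 (adjusted p = 5.50e-05). Kcnab1 ranged over 163 to 296 CPM in CA1, against 60.2 to 112 CPM in CA3 and 82.1 to 133 CPM in DG, and differed by 1.41 ± 0.24 from CA3 (adjusted p = 5.90e-06) and by 1.01 ± 0.21 from DG (adjusted p = 1.57e-04). Kcnh3 was low in CA3, at 22.8, 22.7, 0 and 34.5 CPM, below both CA1 (1.64 ± 0.43, adjusted p = 0.0103) and DG (1.60 ± 0.43 lower in CA3, adjusted p = 7.28e-03). Both differences passed the test only with trained 1 in the fit, and the second only with trained 2 as well. Kcnmb4 was higher in CA3 than in CA1, with 146, 148, 160 and 103 CPM against 76.8, 43.3, 37.2 and 70.5 (1.24 ± 0.28, adjusted p = 1.47e-03), and missed the threshold without trained 2 and in thinned sums, where CA1 minus CA3 was -0.99 and -0.45. DG stood apart by the Kv3 gene Kcnc4, with 93.0, 70.0, 65.7 and 107 CPM, against 13.2 to 29.6 in CA1 (1.96 ± 0.37, adjusted p = 3.06e-05) and 0 to 27.4 in CA3 (2.31 ± 0.44, adjusted p = 2.89e-05). Kcnk1 was higher in DG as well, at 175 to 206 CPM, by 0.82 ± 0.21 over CA1 (adjusted p = 5.47e-03) and 0.90 ± 0.23 over CA3 (adjusted p = 5.23e-03), the first lost without untrained 2. Kcnq5, a Kv7 channel of the M-current, was lower in DG than in CA1 by 1.60 ± 0.45 (adjusted p = 0.0169) and than in CA3 by 1.75 ± 0.48 (adjusted p = 9.06e-03), and both calls were lost without trained 1 or untrained 2, the second also in thinned sums (2.15, adjusted p = 0.0604). Kcnc2 was higher in CA3 than in DG by 1.39 ± 0.28 (adjusted p = 6.95e-05).

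Other genes of the pathway were read from a list of 20 (auxiliary and clustering proteins of potassium channels, sodium pump subunits and chloride cotransporters), of which 18 were tested. Over 252 tests of a partner in a region 51 were higher and 30 lower, beside 8.45% and 3.73% of the tests of all genes. Higher and lower were 9 and 3 in the thalamus, 7 and 1 in upper-layer cortex, 5 and 1 in layer 5 cortex, 3 and 4 in layer 6 cortex, 6 and 2 in the hypothalamus, 5 and 3 in white matter, 4 and 1 in the habenula and 3 and 0 in the striatum. They were 1 and 2 in CA1, 2 and 3 in CA3, 3 and 3 in DG, 1 and 5 in the choroid plexus, 0 and 1 in ependyma and 2 and 1 in the meninges. Dpp10, an auxiliary subunit of Kv4 channels, was higher in upper-layer cortex by 1.09 ± 0.12 (adjusted p = 2.13e-14), and Cntn2, which holds Kv1 channels beside the nodes of myelinated axons, was higher in white matter by 1.85 ± 0.12 (adjusted p = 1.90e-32).

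To ask whether training changed these genes 3 days after the retention test, the 2 trained sections were compared with the 2 untrained ones over all spots. No member of 68 passed the test, and 12 had an unadjusted p under 0.05, where 8.05% of all genes did (DESeq2 also called 0). Over all genes 2 of 13340 were called (0.015%). The median of the log2 differences (trained minus untrained) was 0.01 for the members and 0.01 for all genes tested, and 35 of 68 members were above 0, as were 6891 of all 13340 genes. The standard errors of the members ran from 0.11 to 0.72 with a median of 0.16, and the 33 members with 1000 or more UMIs differed by -0.43 to 0.54.

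The smallest p-values were those of Kcnip1, Kcnab3 and Kcnf1. Kcnip1 had 47.3 and 50.9 CPM in the trained and 32.9 and 34.2 CPM in the untrained sections (0.47 ± 0.12, adjusted p = 0.482). Kcnab3 had 63.5 and 84.4 CPM against 43.3 and 52.4 CPM (0.54 ± 0.14, adjusted p = 0.482), and Kcnf1 56.9 and 53.8 CPM against 73.9 and 66.5 CPM (-0.42 ± 0.12, adjusted p = 0.538). In all 3 the sections of the conditions did not overlap, as in 40 of 68 members and 41.1% of all genes. Over whole sections the interneuron list was also higher in both trained sections, at 1692 and 1647 CPM against 1563 and 1527 CPM. The layer 6 and striatum lists were higher too, and the CA1, CA3 and DG lists lower. The part of these lists in the differences was not tested. Without trained 1, 14 of 66 members were called, 4 higher and 10 lower, where 6.68% of all genes were, and these calls rest on trained 2 as the lone trained section, the one that stood apart above.

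**Figure D4:**
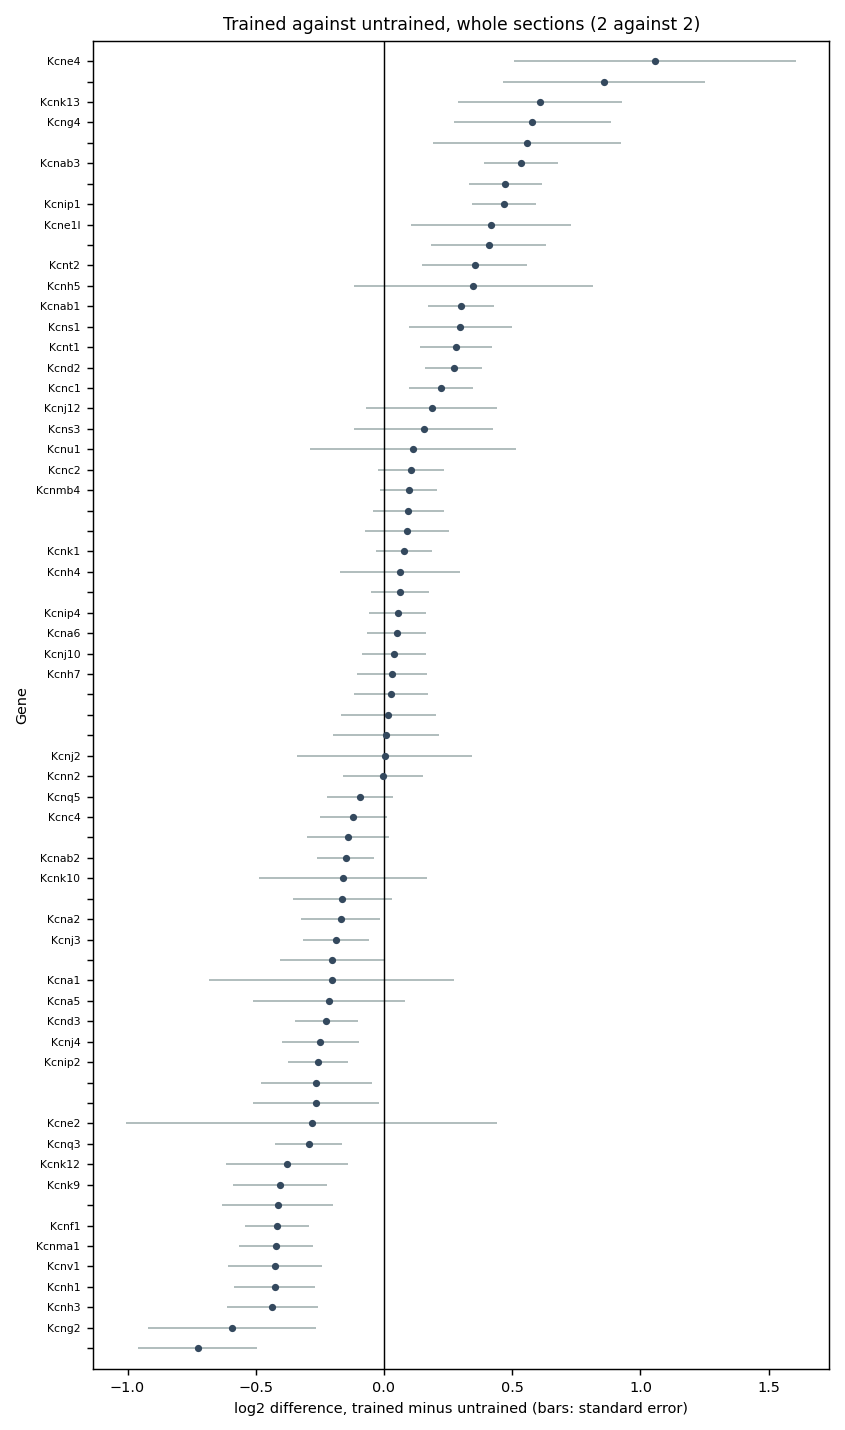
Log2 difference between trained and untrained whole sections (x axis) for 64 of the 68 potassium channel genes (y axis, in order of the difference, with the genes described in the text labelled), with standard errors as bars, 2 sections against 2. Values run from -0.73 to 1.06 on both sides of 0, and none passed the test after adjustment.

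The genes with the most UMIs in their class gave the following levels, listed from the pore-forming to the auxiliary classes. Of the voltage-gated channels, Kcna2 (Kv1) had 125 and 114 CPM in the trained and 147 and 109 CPM in the untrained sections (-0.17 ± 0.15). Kcnc1 (Kv3) had 162 and 190 CPM against 153 and 133 CPM (0.22 ± 0.12). For Kcna2 the sections of the conditions overlapped, and for Kcnc1 they did not. Kcnd2 (Kv4) had 100 and 106 CPM against 80.6 and 80.5 CPM (0.27 ± 0.11), again without overlap. Kcnh3 had 59.0 and 43.6 CPM against 57.9 and 72.0 CPM (-0.43 ± 0.18), which overlapped. Among calcium- and sodium-activated genes, Kcnmb4 had 87.5 and 92.7 CPM against 81.2 and 78.6 CPM (0.10 ± 0.11), the SK channel Kcnn2 28.1 and 38.2 CPM against 30.3 and 32.5 CPM (-0.00 ± 0.16), and Kcnt1 (Slack) 64.3 and 86.1 CPM against 63.5 and 54.4 CPM (0.28 ± 0.14). Kcnj10 had 134 and 121 CPM against 120 and 116 CPM (0.04 ± 0.13), and Kcnk1 109 and 119 CPM against 103 and 102 CPM (0.08 ± 0.11). For both, as for Kcnmb4 and Kcnt1, the trained sections lay above the untrained ones. Of the auxiliary subunits, Kcnab2 had 198 and 213 CPM against 214 and 217 CPM (-0.15 ± 0.11) and Kcnip2 122 and 131 CPM against 134 and 152 CPM (-0.26 ± 0.12). Both were lower in the trained sections without overlap. Kcne1l had 6.74 and 6.29 CPM against 5.34 and 4.10 CPM (0.42 ± 0.31), higher without overlap. Adjusted p-values of the genes with the most UMIs in their class ran from 0.538 for Kcnf1 upward. Of the 18 partner genes none passed the test either, with 5 at an unadjusted p under 0.05, and Lrrc38, a BK gamma subunit, had the smallest p (1.16 ± 0.45, adjusted p = 0.588).

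Within regions the comparison was repeated with 2 sums against 2. Of 329 tests of a member in 1 of 13 regions, over 53 members, none was called and 38 had an unadjusted p under 0.05, where 0.118% of all gene tests were called and 6.21% had such a p (DESeq2 also called 0 members). Without trained 1, 8 of 272 tests of a member were called, where 1.74% of all gene tests were. By region the share of all genes called was 0.088% in CA1, 0.175% in CA3, 0% in DG, 0% in upper-layer, 0.116% in layer 5 and 0.015% in layer 6 cortex, 0.0222% in the thalamus, 0% in the habenula, 0.0566% in the hypothalamus, 0.152% in the striatum, 0% in white matter, 0% in the choroid plexus, 3.41% in ependyma and 1.08% in the meninges. Marker lists also differed between the conditions within regions. Of 84 summed lists, the own list of each region and 5 cell type lists in each, 37 did not overlap between conditions. In 23 of these the trained sections were higher and in 14 lower. Over whole sections 41.1% of all genes did not overlap. Some of those that moved with a gene described here are given beside it, others are not, and the part of the lists in the differences was not tested. Ependyma had no member with 50 UMIs, and the choroid plexus and the meninges had 1 and 2. Kcnab3 in layer 5 cortex was closest to the threshold: it had 115 and 198 CPM in the trained and 70.6 and 64.2 CPM in the untrained sections (1.16 ± 0.28, adjusted p = 0.0918). It passed the threshold without untrained 1 (1.20, adjusted p = 0.0318) and without trained 1 (1.42, adjusted p = 7.29e-03). In upper-layer cortex Kcnab3 had 137 and 278 CPM against 64.0 and 128 CPM (0.86 ± 0.31, adjusted p = 0.956), where the conditions came as close as 137 and 128 CPM. The list of upper-layer cortex was also higher there in the trained sections, at 947 and 979 CPM against 723 and 851 CPM. So was the interneuron list, at 1683.5 and 1591.5 CPM against 1562.9 and 1440.3 CPM. The astrocyte list (680 and 681 against 553 and 676 CPM) and the vascular list (276 and 272 against 203 and 245 CPM) were higher as well, and the microglia list lower. In layer 5 spots the layer 5 list overlapped. The upper-layer list was higher in their trained sections, at 359 and 426 CPM against 309 and 329 CPM, and the microglia list lower. The Kcnab3 difference in upper-layer cortex was 1.27 without trained 1 and 1.53 without untrained 2.

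Also in layer 5, Kcnt1 had 69.2 and 102 CPM against 44.2 and 38.9 CPM (1.01 ± 0.34, adjusted p = 0.365), and Kcnd3 25.5 and 30.8 CPM against 88.3 and 38.9 CPM (-0.90 ± 0.41, adjusted p = 0.58). In upper-layer cortex the Slack-related gene Kcnt2 (1.45 ± 0.42) and Kcnq5 (0.75 ± 0.27) had adjusted p = 0.956, and in layer 6 Kcnk9 (-1.25 ± 0.40), Kcnip2 (-0.69 ± 0.24) and Kcnip4 (0.73 ± 0.31) had adjusted p of 0.841, 0.841 and 0.959. Kcnk9 in layer 6 passed the threshold without trained 1 (-1.68, adjusted p = 0.0122). In layer 6 spots the list of layer 6 was higher in both trained sections, at 881 and 1112 CPM against 835 and 779 CPM, and the vascular list lower, at 180 and 198 CPM against 250 and 220 CPM.

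In the hippocampal layers the lowest adjusted p of a member was 0.748. In CA1 Kcnma1 had 59.1 and 46.6 CPM in the trained and 89.4 and 106 CPM in the untrained sections (-0.97 ± 0.41, adjusted p = 0.748), Kcnj10 112 and 63.3 CPM against 59.6 and 26.4 CPM (1.04 ± 0.46, adjusted p = 0.822), and Kcnab1 296 and 260 CPM against 223 and 163 CPM (0.53 ± 0.25, adjusted p = 0.866). The astrocyte list moved with Kcnj10, at 650 and 772 CPM in the trained and 603 and 502 CPM in the untrained CA1 spots, with none of its 6 markers at 0. The CA1, vascular, microglia and blood lists were also higher there in both trained sections, the CA1 list at 851 and 869 CPM against 745 and 824 CPM. In CA3 Kcnd2 differed by 0.90 ± 0.46, Kcnip2 by -0.41 ± 0.29 and Kcnab2 by -0.18 ± 0.24, with adjusted p of 0.905, 0.905 and 0.959. In DG Kcnj3 (GIRK1) had 137 and 81.1 CPM against 263 and 173 CPM (-0.91 ± 0.33) and Kcnmb4 120 and 99.5 CPM against 90.3 and 59.0 CPM (0.72 ± 0.36), both at an adjusted p of 0.898. The interneuron list was higher in the trained sections in DG, at 1297 and 1032 CPM against 771 and 914 CPM, and in CA3, at 1088 and 1319 CPM against 802 and 802 CPM. Without trained 1, Kcnj3 (-1.18, adjusted p = 0.0365) passed the threshold. Median standard errors of the members were 0.36 in CA1, 0.41 in CA3 and 0.36 in DG.

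Among the other regions, Kcnc1 in white matter had 253 and 257 CPM against 107 and 153 CPM (0.84 ± 0.20, adjusted p = 0.245), Kcnip1 there 110 and 71.5 CPM against 32.2 and 45.1 CPM (1.02 ± 0.36, adjusted p = 0.602) and Kcnc2 117 and 110 CPM against 75.2 and 57.7 CPM (0.75 ± 0.27, adjusted p = 0.602). The interneuron list moved with these 3 genes, at 3241 and 3874 CPM in the trained and 2230 and 2097 CPM in the untrained white matter spots, while the list of white matter was lower, at 18638 and 23626 CPM against 24389 and 27104 CPM. The part of these lists in the differences was not tested. In the striatum Kcnab1 (0.61 ± 0.21, adjusted p = 0.427), Kcnh1 (1.23 ± 0.47, adjusted p = 0.479) and Kcnd3 (-0.97 ± 0.39, adjusted p = 0.514) came first. The striatum list moved with the first 2 of these in the striatum spots, at 3843 and 5444 CPM in the trained and 2710 and 3438 CPM in the untrained sections, with none of its 9 markers at 0, and its part was not tested. Without trained 1, Kcnab1 in the striatum (0.82, adjusted p = 6.43e-03) and Kcnc1 in white matter (0.79, adjusted p = 0.0245) passed the threshold. In the thalamus Kcnk9 had 22.0 and 23.0 CPM against 40.1 and 44.7 CPM (-0.9985 ± 0.31, adjusted p = 0.538), before Kcna2 (-0.46 ± 0.18) and Kcnq3 (-0.41 ± 0.18). The interneuron list was lower there in the trained sections too, at 591 and 613 CPM against 838 and 639 CPM. In the hypothalamus Kcnip2 had 62.5 and 58.8 CPM against 94.9 and 88.0 CPM (-0.67 ± 0.21, adjusted p = 0.552), and Kcnq3 differed by -0.65 ± 0.25. In the habenula Kcnab2 (-0.67 ± 0.41), Kcna2 (0.66 ± 0.42) and Kcnma1 (-0.49 ± 0.35) all had adjusted p = 0.999. The only member tested in the choroid plexus, Kcnk1, differed by 0.26 ± 0.51 (adjusted p = 0.996), and in the meninges Kcnab2 by 0.41 ± 0.41.

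Whether the effect of training differed between regions was tested in 1 model of all regions with the section as a block. Of 67 members 1 was called, Kcnh1, the EAG1 channel (adjusted p = 0.0176), where 0.651% of all genes were. In layer 6 cortex Kcnh1 had 61.2 and 55.5 CPM in the trained and 32.9 and 38.0 CPM in the untrained sections, and in the striatum 31.5 and 50.3 CPM against 15.1 and 18.2 CPM. In layer 5 cortex it had 29.1 and 49.1 CPM against 61.8 and 64.2 CPM, in DG 10.9 and 18.4 CPM against 32.8 and 59.0 CPM, and in the thalamus 2.09 and 2.62 CPM against 7.52 and 10.5 CPM. The trained sections were thus the higher ones in layer 6 and striatum and the lower ones in layer 5, DG and thalamus, of which DG and thalamus had 27 and 18 UMIs. In layer 6 and the striatum the list of the region itself was also higher in both trained sections. It stood at 881 and 1112 CPM against 835 and 779 CPM in layer 6 and at 3843 and 5444 CPM against 2710 and 3438 CPM in the striatum. The layer 5, DG and thalamus lists overlapped in their regions, but cell lists moved there, in both directions. The interneuron list was lower in the trained sections in the thalamus, at 591 and 613 CPM against 838 and 639 CPM, and higher in DG, at 1297 and 1032 CPM against 771 and 914 CPM. The microglia list was lower in layer 5, at 228 and 259 CPM against 336 and 288 CPM, and higher in the striatum, at 376 and 417 CPM against 358 and 327 CPM. The part of these lists in the Kcnh1 call was not tested. The Kcnh1 levels of the conditions did not overlap in these 5 regions, nor in the choroid plexus, ependyma and meninges with 10, 4 and 3 UMIs, and overlapped in the other 6 regions. In the meninges, where Kcnh1 was higher in the trained sections, the meninges list was lower, at 670 and 474 CPM against 812 and 977 CPM. In ependyma, where Kcnh1 was lower, the ependyma list was higher, at 1405 and 1067 CPM against 341 and 933 CPM. The call of Kcnh1 was lost when any 1 section was left out, with adjusted p of 0.107 without trained 1, 0.387 without trained 2, 0.399 without untrained 1 and 0.877 without untrained 2.

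**Figure D5:**
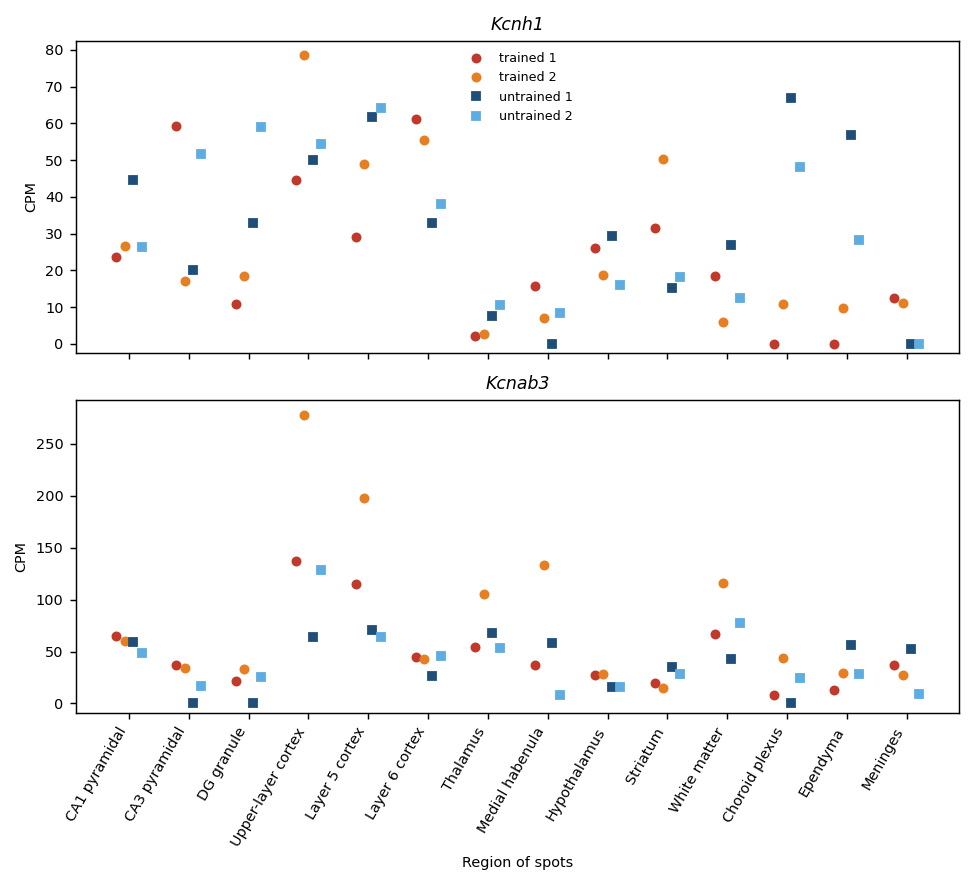
Level in CPM (y axis) of Kcnh1 (top) and Kcnab3 (bottom) in each region (x axis), with circles for trained and squares for untrained sections. Kcnh1 is higher in both trained sections in layer 6 cortex and striatum and lower in both in layer 5 cortex, DG and thalamus; Kcnab3 in layer 5 cortex is at 115 and 198 CPM in the trained and 70.6 and 64.2 CPM in the untrained sections.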

How the data were processed

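Visium counts of 4 sections were used, 1 per mouse. The authors deposited raw UMI counts per gene and spot over tissue. The file headers name Space Ranger 1.2.2, whereas the methods name a later Space Ranger release with the mm10 reference for the sections. The submitters' processing notes list Cell Ranger 8, which the methods use for single nuclei, and STAR and GRCm39. Which of these made the counts was not settled. UMIs tag 3′ ends and were not divided by length. Spots were given to the region whose marker list had the highest mean z score, at least 0.5, over the spot (weight 2) and its up to 6 neighbours. Counts were summed per region and section and compared with edgeR 4.0.16 (TMM, glmQLFTest, 50 or more UMIs, Benjamini-Hochberg, threshold 0.05). A count of 0 was limited by 3 counts, for counting error only. The section was the replicate, with 2 per condition, where a two-sided exact permutation test cannot go below 0.3333.

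Members and lists were chosen with earlier results of these data known. Named are the member with the most UMIs in each class, in a comparison of conditions with no call the 3 members of lowest p, and for each region the 3 called with the largest increase that were above the mean of the other regions in 4 of 4 sections and the 1 with the largest decrease. Kcnip4 and Kcnj10 in the thalamus, Kcnma1, Kcnmb4, Kcnd3 and Kcne2 in the habenula, Kcnj4 in the striatum and the hippocampal pairs were picked after their values were seen. Alternatives were DESeq2 1.42.0, no filter, filterByExpr, abundant genes left out, sums thinned to equal depth, a stricter score of 0.8, the replicate block, no section block and each section left out. The fits were tested on simulated counts with an assumed spread between sections. Over whole sections 30.5% of 1.5-fold and 80% of 2-fold changes were recovered, and in CA1 against the other regions 15.5% and 58%. The comparison of conditions within regions was not simulated. Promoter windows came from RefSeq. Some genes that the naming rule picks are counted but not reported here by name.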

Additional observations from a re-analysis of the deposited data

Results flagged for a closer look

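The effect of training on Kcnh1 differed between regions by the test of the interaction of region and training (adjusted p = 0.0176, edgeR). The trained sections lay above the untrained ones in 3 regions and below them in 5, and the conditions overlapped in 6. The 3 include the meninges with 3 UMIs, and the 5 include ependyma and the choroid plexus with 4 and 10 UMIs. The call was lost when any section was left out.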

How the results depend on the processing

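Members called between conditions over whole sections went from 0 to 1 without the filter on low counts (Kcnab3, 0.55, adjusted p = 0.0146) and to 0 to 14 when 1 section was left out, the 14 (of 66) without trained 1 beside 6.68% of all genes, where the lone trained section is assumed to vary like the untrained ones. Within regions they went from 0 to 1 without the filter (Kcnab3 in layer 5 cortex) and to 0 to 8 with 1 section left out, the 8 (of 272) again without trained 1, beside 1.74% of all gene tests. Replicate numbers did not pair the sections (correlation of deviations 0.02 over 13340 genes). With the replicate block 1 member was called within regions (Kcnc1 in white matter, 0.83, adjusted p = 0.0209) and 0 over whole sections. Calls between regions went from 275 of 938 tests to 158 of 840 in thinned sums, and to 194 to 278 with 1 section left out. Of 47 named region differences 34 kept their direction and call in every alternative where they were tested and 0 reversed. The 22 calls between hippocampal layers (201 tests) became 14 in thinned sums (180 tests) and 14 to 22 with 1 section left out, the 14 without untrained 2. With the stricter score CA3 had too few spots, and between CA1 and DG 10 members were called in place of 9. Of 15 named differences between layers 6 kept their direction and call throughout. No member had an interaction call with filterByExpr, in thinned sums or by DESeq2. Of the 67 members 45 were tested with filterByExpr and 60 in thinned sums, so a call not made there can also be a gene not tested. The call of Kcnh1 was lost in each case with 1 section left out. The cause was not tested. Untrained 1 had the lowest depth, 3560294 UMIs.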
